A study of Mus musculus with 2 samples.

Results

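The replication-dependent histone genes of the mouse were described here as the protein-coding genes of GENCODE release M21 whose symbol begins with Hist1, Hist2, Hist3 or Hist4. There were 67 such genes among 21938 protein-coding genes on the named chromosomes, namely 6 for H1, 18 for H2A, 18 for H2B, 12 for H3 and 13 for H4. The measurements were DNase-seq of whole limb tissue from healthy B6NCrl mouse embryos at 11.5 days of development, with both sexes pooled. There were 2 libraries, labelled as biological replicates 1 and 2 of one untreated group, so no comparison between conditions was possible and no test across groups was made. DNase-seq cuts accessible chromatin in nuclei with the enzyme DNase I and sequences the cut ends, and the deposited files list peaks (150 bp each, with a signal value) and broader hotspots in each library apart.

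Replication-dependent histone genes supply the nucleosome with its proteins while DNA is copied. The core histones H2A, H2B, H3 and H4 form the particle around which DNA is wrapped, and the linker histone H1 binds where DNA enters and leaves it. The genes are short, mostly without introns, and their messages end in a stem-loop instead of a poly(A) tail. They lie in clusters that gather in the nucleus at the histone locus body, organised by Npat, and proliferating tissues such as the limb bud need their products in every S phase. A few members are made in the male germ line, among them Hist1h1t, the testis linker histone, and the pair Hist1h2aa and Hist1h2ba, which encode testis forms of H2A and H2B.

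The promoter sequences below are shown first because the results turn on where peaks fall in them and on which promoters are copies of each other. RefSeq promoters (build GRCm38.p6, the bases from 250 before to 50 after each start) were found for 62 of the 67 genes. The stretch between the facing starts of Hist1h2ag (H2A) and Hist1h2bj (H2B) at chr13:22042950-22043197 is given on the plus strand, with the word CCAAT, on either strand, in capitals.

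Hist1h2ag and Hist1h2bj: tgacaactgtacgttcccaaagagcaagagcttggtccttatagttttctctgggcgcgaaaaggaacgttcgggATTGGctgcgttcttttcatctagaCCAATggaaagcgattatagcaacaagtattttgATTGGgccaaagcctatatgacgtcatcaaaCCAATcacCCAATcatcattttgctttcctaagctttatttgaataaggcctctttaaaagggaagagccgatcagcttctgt

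All 5 CCAAT words of that stretch lay inside the peak of replicate 1 (chr13:22043016-22043165, signal 125) and inside the peak of replicate 2 (chr13:22042996-22043145, signal 130). These were the promoter peaks with the highest mean rank of any histone gene. The next sequences are the 150 bases just before the RefSeq start of 2 linker histone genes with peaks, Hist1h1a at chr13:23763518-23763667 and Hist1h1c at chr13:23738657-23738806, and of the testis linker histone gene without one, Hist1h1t at chr13:23695661-23695810. All 3 are on the plus strand, and capitals mark the word CCAAT, the TATA words TATAAA or TATATA, and the H1 box AAACACA.

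Hist1h1a: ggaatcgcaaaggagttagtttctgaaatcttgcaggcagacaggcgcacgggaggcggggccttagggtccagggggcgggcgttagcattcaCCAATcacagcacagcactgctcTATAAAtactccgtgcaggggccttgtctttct

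Hist1h1c: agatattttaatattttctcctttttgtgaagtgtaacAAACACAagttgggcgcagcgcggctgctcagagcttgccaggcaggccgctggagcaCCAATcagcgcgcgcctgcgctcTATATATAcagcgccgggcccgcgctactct

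Hist1h1t: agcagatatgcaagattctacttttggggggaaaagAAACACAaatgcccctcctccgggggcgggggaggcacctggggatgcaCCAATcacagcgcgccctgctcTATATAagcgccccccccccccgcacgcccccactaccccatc

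Hist1h1t carried an H1 box at -114, a CCAAT word at -65 and a TATA word at -43, counting the base just before the start as -1. In Hist1h1c the corresponding words began at -112, -54 and -31, and Hist1h1a had the CCAAT word at -56 and the TATA word at -33 but no AAACACA in the 300 bases searched. The last sequences are the 150 bases before 2 H4 genes, Hist1h4m (chr13:21811596-21811745, plus strand) and Hist1h4n (chr13:21832198-21832347, minus strand), with TATAAA in capitals. These genes are inverted copies and are transcribed toward each other.

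Hist1h4m: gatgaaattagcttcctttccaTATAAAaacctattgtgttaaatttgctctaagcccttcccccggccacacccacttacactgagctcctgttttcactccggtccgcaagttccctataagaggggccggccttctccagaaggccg

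Hist1h4n: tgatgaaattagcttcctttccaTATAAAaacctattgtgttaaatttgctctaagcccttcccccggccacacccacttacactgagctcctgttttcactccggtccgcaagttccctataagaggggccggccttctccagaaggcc

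Aligned with a shift of 1 base between their RefSeq starts, the promoters of these copies matched at 298 of 299 bases. The aligned promoters of Hist1h2bq and Hist1h2br matched at 300 of 300 bases, and those of Hist1h2ao and Hist1h2ap at 200 of 200 once the different annotated starts were brought together. None of these 6 genes had a peak.

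A peak centred within 1 kb of an annotated transcript start was found for 58 of the 67 histone genes in replicate 1, against 69.5% of all protein-coding genes. The count was also 58 in replicate 2, where the background was 69.9%, and 58 genes (86.6%) had a peak shared by both libraries (an overlap of at least 1 bp), where the background was 67.9%. Of protein-coding genes with 1 start, 37.0% had a shared peak. Without replicate 1 or without replicate 2 the count of histone genes stayed at 58.

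The 9 genes without a peak fell into 2 sets. The first was the 3 testis members, Hist1h1t, Hist1h2aa and Hist1h2ba, which had 0 peaks and 0 hotspots within 1 kb in both libraries. Their surroundings could be told apart from the rest of the genome: 100% of the 32-base words within 1 kb of the start of Hist1h1t, and 89.3% of those around Hist1h2aa and Hist1h2ba, occurred once in the assembly. The nearest peak to Hist1h1t lay 1836.5 bp downstream of its start in replicate 1 and 1776.5 bp in replicate 2, with signals of 82 and 72. For the facing pair Hist1h2ba and Hist1h2aa, which lies apart from the other members, the nearest peak was 3045.5 and 3065.5 bp downstream of the Hist1h2ba start, with signals of 57 and 58.

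The second set was the 6 genes of a block that the reference holds in 2 inverted copies, Hist1h2bq (H2B), Hist1h2ao (H2A) and Hist1h4m in one and Hist1h4n, Hist1h2ap (H2A) and Hist1h2br (H2B) in the other. Within 1 kb of their starts between 0% and 4.26% of 32-base words occurred once. Stretches of 23 kb (chr13:21797143-21820142) and 15 kb (chr13:21831143-21846142) in which 1.01% and 0.56% of words were unique held all 6 starts and 0 peaks in either library. Between the last peak before the block and the first one after it, 56.77 kb in each library, replicate 1 had 0 peaks and replicate 2 had 3. Those 3 lay between the copies, where 89.4% to 98.9% of the surrounding words were unique, and had signals of 11, 18 and 20, from percentile 0.448 to 8.64 of that library.

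Whether the promoters of this block were accessible in the limb could not be read from these lists. Among other protein-coding genes with under 10% unique words around their starts, 5 of 798 (0.627%) had a shared peak, against 77.1% of the 17693 with 90% or more. All 58 histone genes that were neither in the block nor testis members had a shared peak. A loss of reads at identical copies and closed chromatin cannot be told apart here.

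**Figure D1:**
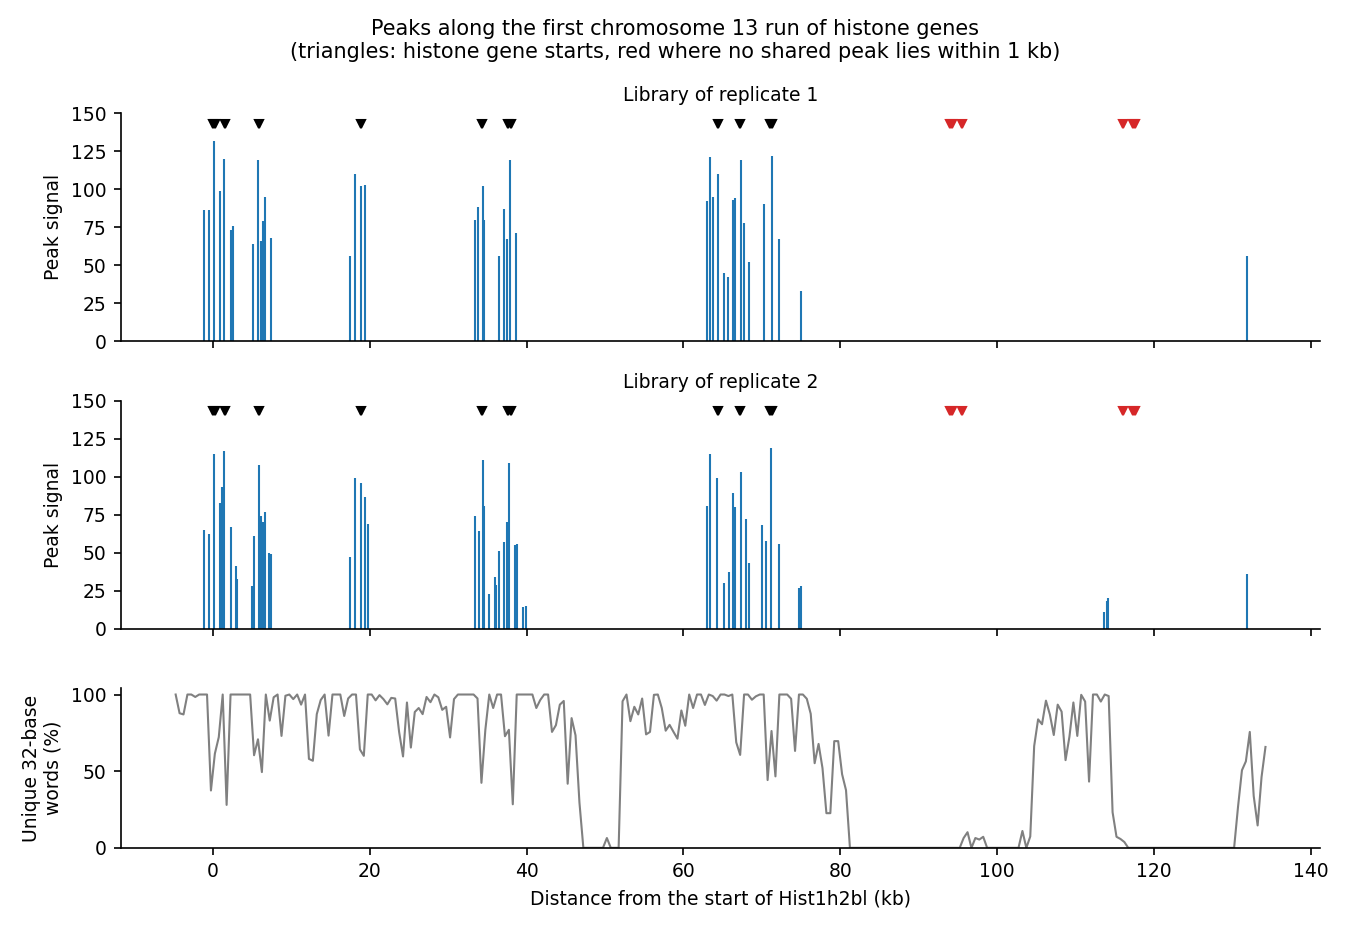
Peaks of each library (vertical lines, height is the deposited signal) along the first run of histone genes on chromosome 13, by distance in kb from the start of Hist1h2bl, with the percent of unique 32-base words in 500-base steps at the bottom. Black triangles mark starts with a shared peak within 1 kb, and the 6 red ones, which have none, stand where the share of unique words is near 0.

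The strongest promoter peaks of histone genes ranked high in both libraries. The median of the strongest signal over the 58 genes was 119 in replicate 1, at percentile 97.6 of all peaks of that library, and 111 in replicate 2, at percentile 95.7. Over all protein-coding genes with a peak the medians were at percentiles 94.8 and 95.1. Histone genes mostly have 1 annotated start (63 of 67), and over genes with 1 start the medians were at 89.6 and 90.9. Percentiles are used because the scaling of the deposited signal between libraries is not given in the sources used here.

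Of the 58 genes, 52 had their strongest peak above percentile 90 in both libraries, against 66.4% of all genes with a peak in both. The order of the genes was similar in the libraries, with a Spearman correlation of 0.800 over 58 genes, which share clusters, peaks and libraries. The strongest signals ran from 34 to 132 in replicate 1 and from 29 to 130 in replicate 2.

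Linker histone genes spanned the widest range of signal at their annotated starts, which rests on Hist1h1d alone. Hist1h1a had the highest values of the class, a signal of 131 in replicate 1 and 118 in replicate 2 (percentiles 99.7 and 97.2). Hist1h1c followed with 124 and 114. In replicate 2 that peak lay 942.5 bp downstream of the start, and the peak nearest the start (22.5 bp downstream) had a signal of 109. Hist1h1b had 110 and 99, at percentiles 95.6 and 93.2. At the start of Hist1h1b the strongest peak of replicate 1 was centred at +34.5 bp and that of replicate 2 at +194.5 bp, so these peaks did not overlap. Its 1 shared peak lay upstream, at -685.5 and -745.5 bp, with signals of 45 and 30.

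Hist1h1d was the weakest histone gene with a peak, with signals of 34 and 29 at percentiles 23.5 and 30.5. Its low rank came with the choice of start. The GENCODE start of Hist1h1d lies 1770 bp from the RefSeq start, and the strongest peak within 1 kb of its first coding base had a signal of 120 in replicate 1 and 112 in replicate 2, at percentiles 97.9 and 95.9. Measured from the first coding base, the 5 H1 genes with a peak ran from 110 to 131 in replicate 1 and from 99 to 118 in replicate 2. Hist1h2be, an H2B gene, has a similar discrepancy: its annotated start lies 35122 bp from its first coding base. Its strongest peaks there, with signals of 115 and 107, lie in the hotspot it shares with Hist1h1e, and within 1 kb of its first coding base the highest signals were 111 and 110.

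The core histone genes with the highest mean ranks were 2 facing pairs. Among H2A genes, Hist1h2ag had signals of 125 and 130, and Hist1h2ad 130 and 124. The highest H2B genes, Hist1h2bj and Hist1h2bf, are their partners and had the same peaks. Hist1h3g led the H3 genes with 131 and 122, followed by Hist1h3a with 121 and 123. The peaks of Hist1h3a with these signals lay 815.5 and 875.5 bp downstream of its start, nearer to the start of Hist1h4a, and the peak at its own promoter (-44.5 bp) had a signal of 105 in both libraries. Hist1h4a led the H4 genes with 126 and 123, the latter the same peak as that credited to Hist1h3a, and Hist1h4f followed with 129 and 120.

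Among core histone genes with a peak, the 4 with the lowest mean ranks were in the Hist2 cluster of chromosome 3. Hist2h2aa1 had signals of 78 and 69 and Hist2h2aa2 75 and 66, near percentile 80 in both libraries. Hist2h3c2 had 89 and 74, and Hist2h3c1 had 60 and 50, the lowest of the H3 class. These 4 genes also lie in a repeat of inverted copies. Their share of unique words was between 19.4% and 43.4%, and the aligned promoters of Hist2h3c1 and Hist2h3c2 matched at 284 of 285 bases.

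The peak credited to each of those H3 genes did not lie at its promoter. It was centred 825.5 bp downstream of the Hist2h3c1 start and 956.5 bp downstream of the Hist2h3c2 start in replicate 1, past the coding sequence. With a limit of 500 bp both genes lost their shared peak, as did Hist1h1b and Hist1h1d, which left 54 genes. The part of repeated sequence in the lower signals was not tested.

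Among the low H2B genes, Hist3h2ba had a signal of 90 in both libraries (percentiles 88.7 and 90.9), and Hist1h2bb 108 in both. The lowest H4 genes still ranked high, with 102 and 111 for Hist1h4k and 110 and 99 for Hist1h4j. The peaks of Hist1h4j with these signals lay at -813.5 and -773.5 bp, and the peak nearest its start (-53.5 bp) had 102 and 96. By class, the median percentiles in replicate 1 were 96.7 for H1, 97.2 for H2A, 97.6 for H2B, 97.9 for H3 and 98.7 for H4. In replicate 2 they were 96.1, 94.9, 95.3, 95.0 and 95.9, so the order of the classes was not the same in both libraries.

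**Figure D2:**
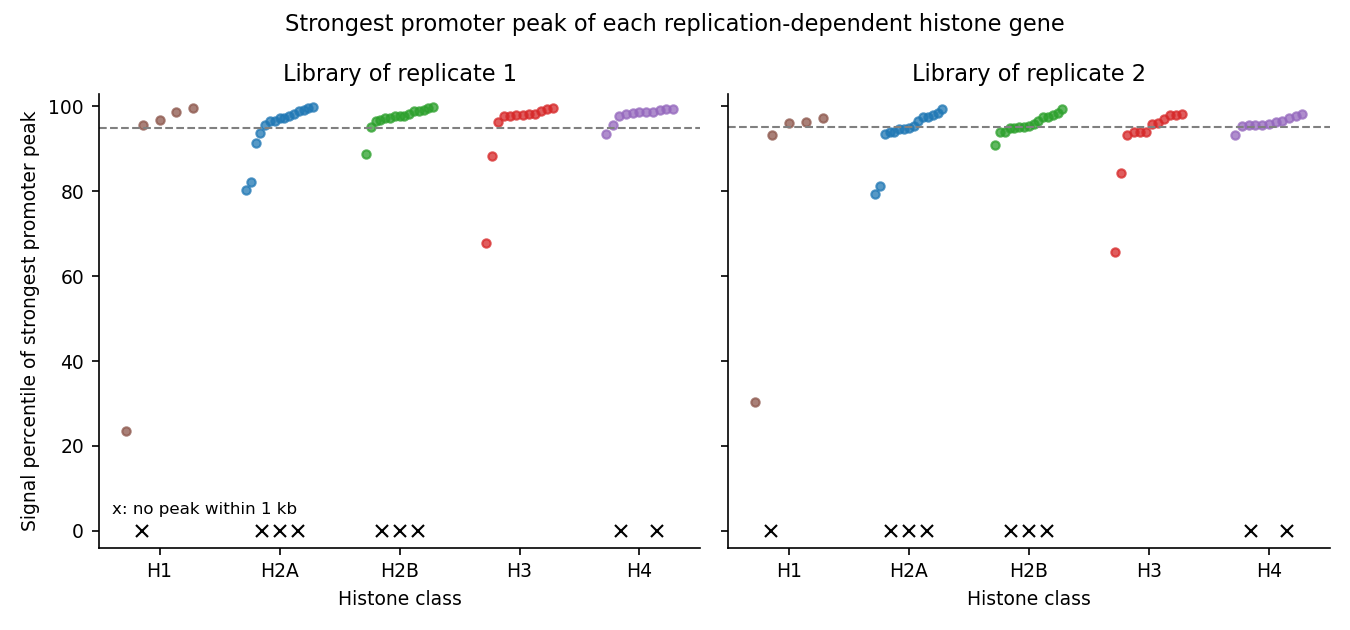
Signal percentile (y axis) of the strongest peak within 1 kb of each histone gene start, by class, in the libraries of replicates 1 and 2. Each point is a gene, crosses at 0 are genes without a peak, and the dashed line is the median over all protein-coding genes with a peak. Most points sit above percentile 90, with Hist1h1d and the repeated Hist2 genes below.

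Counts of genes with a shared peak were 5 of 6 for H1, 15 of 18 for H2A, 15 of 18 for H2B, 12 of 12 for H3 and 11 of 13 for H4. The missing H1 gene was Hist1h1t. Each of H2A and H2B lacked 1 testis gene and 2 block genes, and H4 lacked the 2 block genes. The full count for H3 includes Hist2h3c1 and Hist2h3c2, whose peaks lay past their coding sequence.

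With neighbouring starts at most 100 kb apart counted as a run, the genes formed 7 runs. On chromosome 3 all 10 genes of the Hist2 cluster had a shared peak. Hist4h4, alone on chromosome 6, had signals of 124 and 109. On chromosome 11, Hist3h2a had 110 and 106 and Hist3h2ba had 90 and 90.

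The start of Trim17, which is not a histone gene, coincides with that of Hist3h2a, so they share their peaks. Bola1 starts 156 bp from a gene of the Hist2 cluster and had 7 shared peaks over its starts. Hfe, the iron regulator inside the longest run, had peaks at percentiles 67.9 and 77.2, below most of the histone genes on either side.

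On chromosome 13 the 54 Hist1 genes fell into 4 runs, with shared peaks at 12 of 18, 5 of 5, 28 of 29 and 0 of 2 genes. In the second run, Hist1h2ah and Hist1h2bk had 127 and 122, Hist1h4i had 121 and 111, and Hist1h2ag and Hist1h2bj had 125 and 130. That run of 9.647 kb, flanks included, held 14 peaks in each library, 145 per 100 kb. The third run held 49.4 and 46.5 peaks per 100 kb and the first, with the block, 34.3 and 46.8.

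The stretches between runs differed. The gap of 1485.84 kb before the third run, which holds many vomeronasal receptor genes, had 10.4 and 10.2 peaks per 100 kb, and 6 of its 40 protein-coding genes had a shared peak. The gap of 168.489 kb before the testis pair had 10.7 in each library and a shared peak at 0 of 5 genes. The gap of 199.824 kb between the first and second runs had 40.0 and 41.0, close to the density of the first run. Of the 51 other protein-coding genes in the runs and gaps, 39 had no shared promoter peak: 34 vomeronasal receptor genes (Vmn1r symbols), the transporter genes Slc17a1, Slc17a2, Slc17a3 and Slc17a4, and Trim38. The highest among the rest were Zfp184, at percentiles 99.6 and 99.7, and Zfp322a, at 98.5 and 98.2, both zinc finger genes.

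Histone genes had a median of 3 peaks within 1 kb in each library, against 2 for all protein-coding genes and 0 for those with 1 start. The peaks of histone genes were not independent promoters. In all, 149 distinct peaks in replicate 1 and 137 in replicate 2 lay near the 67 genes, and 37 and 40 of them were within 1 kb of 2 or more. With each peak counted only for the gene of the nearest start, the median was 2 in each library. Of the distinct peaks 81.2% and 87.6% were shared with the other library, against 69.8% and 73.1% of all peaks. The 2 sets are unlike in strength and place. The distinct peaks lie near starts and had median percentiles of 88.7 and 86.2 among all peaks of their library. The part of signal in the sharing was not tested.

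Facing pairs, in which an H2A and an H2B gene (in 1 case an H2B and an H3 gene) are transcribed away from each other, made up 26 of the 67 genes. The 13 pairs had a median of 267 bases between starts (175 to 659). In 10 pairs a peak was centred between the starts in both libraries, and in each of these it was the strongest peak of both genes together. The other 3 were the 2 pairs of the repeated block and the testis pair Hist1h2ba and Hist1h2aa.

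The pair Hist1h2ah and Hist1h2bk had 5 shared peaks near either start, the most of any pair. For Hist1h2ak and Hist1h2bn there were 4, with a peak of 119 and 109 between the starts. For Hist1h2ag and Hist1h2bj there were 3, and the stretch printed above carries the one between them.

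The strongest peak lay upstream of the start at 83.9% (replicate 1) and 82.1% (replicate 2) of the 56 histone genes with a peak and 1 start, against 67.2% and 65.1% of all genes with 1 start and a peak. The median distance was -96 bp in replicate 1 and -91 bp in replicate 2, against -44.5 bp and -39.5 bp over all such genes. All 15 H2A and all 13 H2B genes with 1 start had their strongest peak upstream in both libraries, at medians of -122.5 and -126.5 bp for H2A and -128.5 and -141.5 bp for H2B. For H4 the medians were -62.5 bp in both, with 11 and 10 of 11 genes upstream. By the annotated starts, H3 and H1 differed from these classes. The strongest peak was upstream at 6 of 12 H3 genes and 2 of 5 H1 genes in each library. The H3 median was -24.5 bp in both, with quartiles at -95.75 and 818 bp in replicate 1. The far downstream values were those of Hist2h3b, Hist2h3c1, Hist2h3c2 and Hist1h3a (815.5 to 976.5 bp in replicate 1). From the first coding base, at or past the start, the nearest peak was upstream in both libraries at every H3 gene except Hist2h3c1 and Hist2h3c2. For H1 genes with a promoter peak it was upstream too, except at Hist1h1b in replicate 2 (123.5 bp downstream).

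The median distance for H1 was 2.5 bp in replicate 1 and 27.5 bp in replicate 2. RefSeq and GENCODE starts were within 10 bases of each other at 29 of the 62 matched genes.

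Hotspot cover at most histone genes fell from shortly before the start into the coding sequence. At 80 bp before the start 91.1% of the 56 genes were in a hotspot in both libraries, at the start 62.5% and at 140 bp after it 21.4%. Unique words stood at 92.9%, 91.1% and 25% of the genes at the same places, and cover began to fall before they did. Each word was placed by its leftmost base on the chromosome, so at minus-strand genes it reaches back toward the promoter. The places of words and cover can therefore differ by up to a word length. Over the 56 genes, a median of 84% (replicate 1) and 88.5% (replicate 2) of the 400 bases before the start lay in a hotspot. This was close to the 82.2% and 94.8% of the 1821 protein-coding genes with 1 start and a peak in both libraries. Of the 400 bases after the start, a median of 13.4% lay in a hotspot in either library, against 90% and 100% for that wider set. Cover came back past the gene: 600 bp after the start 83.9% of the histone genes were in a hotspot in both libraries, against 47.4% and 53.0%.

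Low cover was also seen over most of the coding sequences, which are 309 to 669 bases long. The median cover by hotspots was 0% in both libraries for H2A and H2B, 6.50% for H3 and 2.27% for H4. H1 stood apart at 83.0% and 85.7%. Of the 58 genes with a shared peak, 52 in replicate 1 and 49 in replicate 2 had a peak centred within 500 bp past the coding sequence (89.7% and 84.5%). Among other protein-coding genes with a peak in both libraries and a coding span under 1000 bp, 21.4% and 18.7% of 626 had one. In 37 and 31 of the histone genes such a peak was over 1 kb from any other histone gene start.

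Cover of the coding sequence went with the share of unique words at both extremes of that share. The share of words occurring once was 83.6% over H1 coding sequences, 21.1% for H2A, 25.6% for H2B, 10.3% for H3 and 32.1% for H4, whereas it was 85.0% over the 300 bases before the coding sequence of all 67 genes. Among the 64 genes that are not testis members, 20 had under 10% unique words in the coding sequence, and 19 of these in each library had no coding base in a hotspot. The 20 include the 6 genes of the repeated block, which had no hotspot within 1 kb of their starts either. Of the 11 with 50% or more, 11 were covered over more than 50% of the coding sequence in each library, with a median of 98.4%. These 11 were the H1 genes other than Hist1h1t and core histone genes of the Hist2, Hist3 and Hist4 clusters. None was a core histone gene of the Hist1 runs, and the part of class and cluster was not tested. The 33 genes between these limits varied: the medians were 8.09% and 8.21%, 5 were covered over more than 50% in each library, and 9 and 8 were not covered at all.

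Single core histone genes showed both the relation and its limits. Hist4h4, with 99.6% unique words in its coding sequence, and Hist2h4, with 87.4%, were covered over 100% in both libraries. Hist1h4i, of the same class with 20.5%, was covered over 2.27%. Hist2h2bb, with 93.7%, was covered over 100%, and its class partner Hist1h2bc, with 0%, was not covered. In these comparisons the fully covered genes lie outside the Hist1 runs, and Hist1h4i and Hist1h2bc lie in them. At like shares cover could differ, since Hist1h4f, with 33.8%, was covered over 71.8% and Hist1h4c, with 37.8%, over 8.09%. The testis genes again differed, since Hist1h1t had 100% unique words and no cover.

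**Figure D3:**
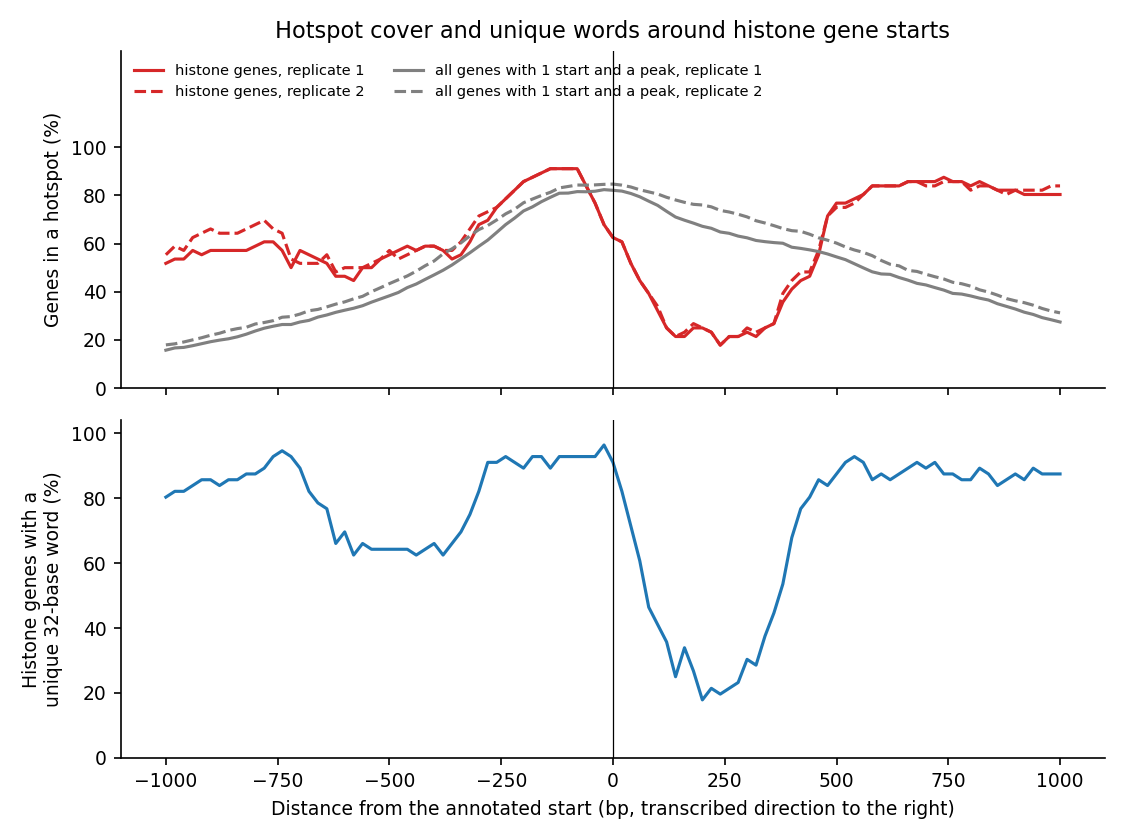
Percent of genes in a hotspot at each distance (bp) from the annotated start, for the 56 histone genes with 1 start and a shared peak (red) and all 1821 genes with 1 start and a peak in both libraries (grey), solid for replicate 1 and dashed for replicate 2, with the percent of the histone genes that have a unique 32-base word at that distance below. Cover of the histone genes falls from 91.1% at -80 bp to 62.5% at the start, before the unique words do, and both are low past +100 bp and return near 500 bp. Words are placed by their leftmost base on the chromosome.

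**Figure D4:**
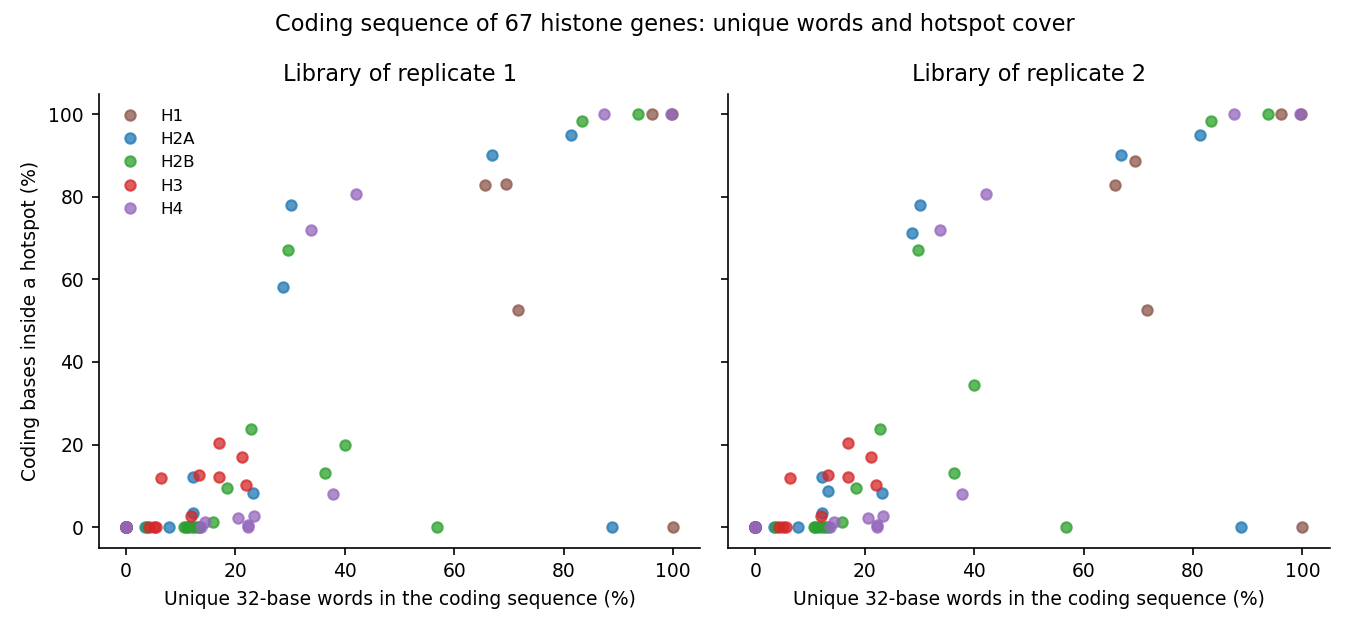
Percent of coding bases inside a hotspot (y axis) against the percent of unique 32-base words in the coding sequence (x axis) for the 67 histone genes, by class and library. The 3 points at 0% with more than 50% unique words are the testis genes, and the other genes with 50% or more lie at 52.5% or above.

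The edges of these hotspots coincided between libraries. Of 208 edges of replicate 1 hotspots near histone genes that overlapped a hotspot of replicate 2, 116 (55.8%) fell on the same base in both. Near other protein-coding genes the share was 5.04%, and over all overlapping hotspots 4.52%. Read from replicate 2, the shares were 57.4%, 5.72% and 4.77%.

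At edges on the same base, 92.1% of words in the 100 bases inside the hotspot were unique and 67.1% in the 100 bases outside. At the other edges of replicate 1 these were 96.9% and 89.4%. Most of the peaks near histone genes lay on unique sequence: 134 of 149 in replicate 1 and 113 of 137 in replicate 2 had 100% unique words. The lowest shares in a peak were 44.5% in replicate 1 and 9.24% in replicate 2. The same was not counted over all peaks. The files do not say whether repeated sequence was masked when hotspots were called, and its part in the edges was not tested.

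Hotspot widths must be read with these edges in mind. The median of the widest hotspot within 1 kb was 1072 bp in replicate 1 and 1106 bp in replicate 2. It was 991 and 1139 bp over all protein-coding genes with one, and 772 and 911 bp over those with 1 start. By the mean of both libraries, the 5 genes with the widest were Hist1h1b (2742 and 2807 bp), the neighbours Hist1h1e and Hist1h2be (2468 and 2140 bp, the same hotspots), Hist2h4 (2352 and 2277 bp) and Hist4h4 (1933 and 2115 bp). Hist1h2af and Hist1h4h, which share a hotspot, had 1508 bp in replicate 1 and 2349 bp in replicate 2. The coding sequences of Hist1h1b, Hist1h1e, Hist2h4 and Hist4h4 have 69.5% or more unique words, and that of Hist1h2be, far from the hotspot at its annotated start, has 12.7%.

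By class the widths were largest for H1, with medians of 1678 and 2024 bp over 5 genes, against 1037 and 1049 bp for H2A. The smallest widest hotspots were at Hist1h1d (97 and 243 bp) and Hist2h2aa2 (181 and 204 bp). Widths of the libraries had a Spearman correlation of 0.799 over 58 genes. The deposited score of a hotspot, a -log10 value, is capped at 100, and in both libraries the widest hotspot was at the cap for 53 of the 58 genes (91.4%), against 86.9% of all genes with a peak in both.

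Histone promoters also shared words that the choice of genes did not use. CCAAT, the recognition word of the factor NF-Y, was present on either strand in 53 of the 62 matched promoters (85.5%), against 37.4% of the 32851 promoters in the RefSeq table. It was found in all 6 H1, 18 H2A, 16 H2B and 10 H3 promoters and in 3 of 12 H4 promoters. Among genes with the word and a shared peak, a CCAAT lay inside a peak at 40 of 46 in replicate 1 and 36 of 46 in replicate 2. A gene counted here if any of its CCAAT words lay inside any peak. The same share over other promoters was not computed, so whether it is particular to histone genes is not known. The TATA words TATAAA or TATATA were in 67.7%, against 17.1% of all promoters.

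Words tied to single classes were rarer. The H1 box AAACACA was in 5 of 6 H1 promoters, against 7.18% of all, and in 2 of 18 H2A and 2 of 16 H2B promoters. At the 4 H1 genes with it and a shared peak it lay between -122 and -112, inside a hotspot at 4 of 4 and inside a peak at 0 of 4 in both libraries. The octamer ATTTGCAT, known from H2B promoters, was in 7 of 16 H2B promoters and 7 of 18 H2A promoters, against 1.74% of all. Since facing H2A and H2B promoters overlap, the same word can count for both genes.

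The E2F words TTTGGCGC or TTTCGCGC were in 9 of 62 promoters (14.5%), against 0.813% of all, and these were 5 H2A and 4 H2B promoters. Most of these counts also repeat a word. The same word counted for Hist1h2an and Hist1h2bp, and likewise for Hist1h2ah and Hist1h2bk. So it did for Hist1h2ag and Hist1h2bj, and for Hist1h2ad and Hist1h2bf. GGGCGG was in 9 of 12 H4 promoters and, at a similar share, in 4 of 6 H1 promoters. It was in 7 of 18 H2A, 2 of 16 H2B and 2 of 10 H3 promoters. Over all histone promoters the share was 38.7%, near the 35.7% of the table. The word CGTCCGC, used here for HINFP, an H4 regulator, was in 1 of 62, an H2A promoter. The ratio of observed to expected CpG had a median of 0.740 in histone promoters and 0.384 in the table, at a G+C content of 45.3% and 52.7%.

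The 9 genes without peaks held some of these words. All 3 testis promoters had a TATA word, the word CCAAT and the H1 box AAACACA, and 2 of the 3 had the octamer. The promoters of the facing Hist1h2ba and Hist1h2aa overlap, and their octamer is the same word counted for both genes, as is their H1 box. Of the 6 block promoters, 4 had CCAAT, 2 a TATA word and 1 GGGCGG, while 0 had the octamer, the H1 box or an E2F word. Their median CpG ratio was 0.455 for the testis genes and 0.894 for the block, against 0.726 for the matched genes with a shared peak. A match is a description of these letters and does not show binding.

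Genes that act with the histone clusters were examined beside them. All 11 histone variant genes outside the clusters, which are made throughout the cell cycle or replace canonical histones, had a shared promoter peak, with H2afv (130 and 134) and H2afx (131 and 132) ranked highest. All 23 genes for histone gene transcription and the processing of histone messages had one too, against 67.9% of all protein-coding genes. Casp8ap2, a component of the histone locus body, had signals of 134 and 134, and Npat, its organiser, 132 and 135. Median percentiles were 96.0 and 97.4 for the variants and 98.1 and 98.4 for the transcription and processing genes. Over all protein-coding genes with a peak they were 94.8 and 95.1.

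The tissue label was checked with marker genes. All 9 limb mesenchyme genes had a shared promoter peak, against 67.9% of all protein-coding genes. They were led by the transcription factor genes Msx1 (127 and 132) and Twist1 (123 and 126). Tbx4, Prrx2 and Tbx5 were lowest, at mean percentiles over both libraries of 85.6, 77.8 and 75.4. None of the 3 liver genes (Alb, Ttr, Apoa1) had a peak in either library, and 0 of the 3 white blood cell genes (Ptprc, Cd52, Laptm5) had a shared one. Ptprc, the CD45 gene of white blood cells, had 1 peak of signal 35 in replicate 1. All 3 neuron genes had a shared peak, led by Snap25 (105 and 102) and Tubb3 (80 and 68). Mean percentiles of Snap25, Tubb3 and Neurod1 were 94.0, 82.0 and 80.8. The count thus did not separate limb from neuron genes, and their ranks overlapped. Tissue holds many cell types, and a peak in more cells cannot be told apart from a stronger one in fewer cells.

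The libraries were of similar size, with 174611 peaks in replicate 1 and 167550 in replicate 2. The median signal was 47 and 39 and the number of hotspots 151790 and 144013. Read depth is not given in the peak lists, so the counting error behind a signal value is unknown, and the difference between 2 libraries is the error estimate available.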

How the data were processed

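Peak and hotspot lists of 2 DNase-seq libraries of limb tissue were used as deposited by the authors, on build mm10 per the labels. Peaks carry a signal value that the authors deposited, and hotspots a -log10 significance value that the authors deposited with a cap at 100. For the aligner, the caller and the treatment of multiply matching reads, no source used here gives a name or rule. A peak counted for a gene when its centre lay within 1 kb of any annotated transcript start (GENCODE M21, 93513 starts). The strongest peak was ranked among all peaks of its library on the named chromosomes (mid-rank percentile). Shared peaks overlapped by at least 1 bp. Unique sequence is the percent of 32-base words that occur once, on either strand, in the 66 primary sequences of GRCm38. RefSeq promoters were matched through Entrez identifiers. Computation used Python 3.11.15, NumPy 2.4.6, SciPy 1.17.1 and numba 0.67.0, and counting was tested on simulated data. No test between groups was made. The genes and lists were chosen with earlier results of these data known. Genes were named by a rule: those without a peak, those of runs with at most 5 genes, the 2 highest and 2 lowest of each class, the 5 widest hotspots (by the mean of both libraries), 3 facing pairs at each end by shared peaks, and the 2 highest of each list. Genes named for their coding sequence (Hist1h4i, Hist1h4f, Hist1h4c, Hist2h2bb, Hist1h2bc), for a shared hotspot (Hist1h2af, Hist1h4h), for a neighbouring start (Bola1, Trim17, Hfe) or for sequence were chosen after their values were seen. So were Hist2h3b, named for the place of its peak, and Tbx4, Tbx5, Prrx2 and Neurod1, named for their ranks. Settings tried are in the closing section.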

Additional observations from a re-analysis of the deposited data

How the results depend on the processing

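The count of 58 genes with a shared promoter peak lay between 54 and 59 under all alternatives, and was 58 without replicate 1 and 58 without replicate 2. With a limit of 500 bp Hist2h3c1, Hist2h3c2, Hist1h1b and Hist1h1d were lost (54), with 2 kb Hist1h1t was gained (59), with peaks above the median signal only Hist1h1b and Hist1h1d were lost (56), and with the nearest start only Hist2h2be, Hist1h2an and Hist1h1d were lost (55). The count for H1 fell from 5 to 3 within 500 bp and to 3 with peaks above the median signal, while counts of the other classes and of the clusters stayed within 1.5 times. Median peaks per gene moved from 3 to 1 within 500 bp, to 5 within 2 kb and to 2 with the nearest start, in each library. Median percentiles of the strongest peak stayed within the spread between libraries under all alternatives, but single genes did not: with the nearest start 15 of 57 mean percentiles moved by more than that spread, for example that of Hist2h2be from 97.3 to 60.0 and that of Hist1h2bf from 99.0 to 60.3, as did 11 of 58 within 2 kb and 3 of 55 within 500 bp. The median widest hotspot moved to 955.5 and 959 bp within 500 bp, to 1147 and 1154 bp within 2 kb and to 949.5 and 973 bp with the nearest start (replicates 1 and 2). In replicate 2 it was 1072 bp with peaks above the median signal, with any base of the peak counted, and with hotspots that hold a peak of the gene. A gap of 50 kb or 200 kb gave 8 or 6 runs. Inside the 150 bp of each peak the median share of unique words was 100%, against 75.5% in the windows. Chosen after seeing the data were distances from the first coding base or from coding transcripts (58 genes each) and the following. Edges on the same base made up 61.1% and 64.7% within 500 bp and 62.4% and 63.8% among hotspots at the cap. Median coding cover, 1.32% and 2.27% over all genes, was 2.70% and 3.33% without genes of few unique words and 2.43% in replicate 1 without the testis genes. The causes of these shifts were not tested. No paired analysis was possible because there is 1 group.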
